A study of Mus musculus with 6 samples.

Results

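The matrix metalloproteinases (MMPs), the ADAM and ADAMTS metalloproteinases, the ADAMTS-like proteins and the tissue inhibitors of metalloproteinases (TIMPs) were compared between PPARγ2 K382Q- and PPARγ2 K382R-overexpressing mouse cells. Members were chosen by gene symbol alone, and 85 of the 56884 gene IDs matched, with 23 MMPs, 34 ADAMs, 19 ADAMTSs, 5 ADAMTS-like genes and 4 TIMPs. RNA was taken from cell lines of the stromal vascular fraction (SVF) of subcutaneous white adipose tissue (scWAT) on day 2 after induction towards beige adipocytes, from 3 cultures labelled as biological replicates per mutant. In K382Q, glutamine takes the place of a lysine of PPARγ2 and mimics its acetylated form, whereas in K382R arginine mimics the deacetylated form. Both groups carried an HA-tagged mouse PPARγ2 mutant in a pMXs-Puro retroviral vector, were selected with puromycin, and were induced with 500 μM isobutylmethylxanthine, 125 μM indomethacin, 2 μg/mL dexamethasone, 0.5 μM rosiglitazone (a PPARγ agonist), 1 nM T3 and 5 μg/mL insulin. The comparison is therefore between mutants, each expressed on top of the endogenous *Pparg* in an immortalised line, and cells with wild-type PPARγ2 or an empty vector were not analysed here. The sources used here do not say whether the biological replicates came from separate infections, so the p-values measure the spread between these cultures.

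MMPs, ADAMs and ADAMTSs are zinc-dependent endopeptidases that are made as inactive precursors. MMPs cleave collagens, gelatins and other matrix proteins, ADAMs are membrane proteins many of which release the extracellular parts of other membrane proteins, and ADAMTSs are secreted enzymes that cleave proteoglycans, procollagens and fibrillin-associated proteins. TIMPs bind the active site of MMPs, and of only some ADAMs and ADAMTSs, and block it. Pericellular collagen cleavage by the membrane-type MMP *Mmp14* is known to be needed for adipocytes to develop in a collagen-rich tissue.

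The promoters of 4 members with the largest differences are shown first, because *Mmp3* and *Mmp13* lie in one gene cluster on chromosome 9 and share motifs that *Timp1* and *Adamts4* do not have in this window. Each is the 300 bases before the start of the canonical transcript in GENCODE mouse release 39, read 5′ to 3′ on the strand of the gene from GRCm39. Capitals mark 3 motifs, each searched on both strands. The first is the AP-1 motif TGAGTCA, which appears reversed and complemented in the promoter of *Mmp13*. The second is the TATA box, with the letters TATAAA. The last is an interferon response motif, a pair of GAAA with any 2 bases between them, which in *Mmp13* lies on the other strand. None of the capitalised motifs overlap each other.
*Mmp3* (chr9:7445522-7445821, plus strand): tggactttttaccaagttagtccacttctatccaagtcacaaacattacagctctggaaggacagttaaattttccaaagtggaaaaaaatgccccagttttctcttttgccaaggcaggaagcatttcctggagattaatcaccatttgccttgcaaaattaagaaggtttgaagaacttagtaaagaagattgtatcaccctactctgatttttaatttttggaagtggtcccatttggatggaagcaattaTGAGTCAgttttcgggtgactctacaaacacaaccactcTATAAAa
*Mmp13* (chr9:7272214-7272513, plus strand): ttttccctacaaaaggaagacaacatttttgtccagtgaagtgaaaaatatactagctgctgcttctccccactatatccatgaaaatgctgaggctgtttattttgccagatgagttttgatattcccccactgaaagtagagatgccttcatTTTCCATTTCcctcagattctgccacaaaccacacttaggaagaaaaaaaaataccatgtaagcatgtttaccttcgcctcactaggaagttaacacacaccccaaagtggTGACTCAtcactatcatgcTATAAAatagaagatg
*Timp1* (chrX:20736051-20736350, plus strand): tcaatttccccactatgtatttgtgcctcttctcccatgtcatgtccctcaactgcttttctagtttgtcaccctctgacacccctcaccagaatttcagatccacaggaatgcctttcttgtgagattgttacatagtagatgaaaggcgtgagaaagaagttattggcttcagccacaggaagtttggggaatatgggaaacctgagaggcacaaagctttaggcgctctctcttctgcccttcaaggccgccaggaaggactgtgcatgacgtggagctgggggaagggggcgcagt
*Adamts4* (chr1:171077690-171077989, plus strand): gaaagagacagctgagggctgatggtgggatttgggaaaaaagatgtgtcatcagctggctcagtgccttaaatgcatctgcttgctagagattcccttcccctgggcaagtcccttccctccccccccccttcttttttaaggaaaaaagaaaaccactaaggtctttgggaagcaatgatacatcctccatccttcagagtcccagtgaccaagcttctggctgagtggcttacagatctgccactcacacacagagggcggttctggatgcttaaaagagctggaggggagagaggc

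In *Mmp3* the AP-1 motif lay at bases -46 to -40 from the start and the TATA box at -7 to -2, and in *Mmp13* they lay at -35 to -29 and -16 to -11. The AP-1 letters were present in the same window of 5 of the 33 members with a tested level (*Mmp3*, *Mmp13*, *Mmp19*, *Mmp28* and *Adam19*) and in 3.92% of the windows of 12183 protein-coding genes tested. TATAAA was present in 3 members (*Mmp3*, *Mmp13* and *Adamts1*) and in 9.1% of the windows. The interferon response motif was present in 1 member, *Mmp13*, and in 3.74% of the windows, and the PPAR response element (a pair of AGGTCA in one direction with 1 base between them) in 0 members and 0.0246% of the windows. The GC box GGGCGG was present in 18 members, including *Adamts4*, *Mmp2* and all 5 ADAMs of high level, and in 51.6% of the windows. The exact letters of the PPAR response element were in 3 of the 12183 windows, too few for their absence from 33 members to be informative. These matches describe letters and not bound sites.

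The depth of a library, read as the total length of aligned reads, was 5.95 to 7.50 Gb in K382Q and 6.53 to 8.15 Gb in K382R. Levels are given as TPM, a share of all transcripts after division by transcript length, so that genes can be compared with each other. All 7 adipocyte markers looked at were tested. Of these, 3 rose and 3 fell in K382Q, beside 11.1% and 36.9% of all genes tested. The counts were 4 and 2 with median-ratio scaling, beside 3057 and 3153 of the 15426 genes tested. They were 1 and 3 with quantile normalization, beside 2954 and 3241. On the log2 scale *Fabp4*, *Cidec* and *Cd36* rose by 0.34, 0.27 and 0.43. *Lpl* fell by 0.19, and *Plin1* did not pass the test (log2 fold change -0.05). *Adipoq* fell by over 2-fold, at 147 to 149 TPM in K382Q and 346 to 383 TPM in K382R. The level of *Pparg* (endogenous and transgene reads cannot be told apart) was 1104 to 1333 TPM in K382Q and 1590 to 1632 TPM in K382R. Of the leukocyte markers, *Ptprc*, *Adgre1* and *Cd3e* were listed at or near 0, *Cd68* was at 3.17 to 5.10 TPM and *S100a8* at 1.03 to 2.70 TPM over the 6 libraries without passing the test, and the 8 markers summed to 5.72 to 5.85 TPM in K382Q and 5.18 to 6.87 TPM in K382R. The 5 endothelial markers summed to 1.57 to 2.23 TPM in K382Q and 1.69 to 1.82 TPM in K382R.

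Most of the measured matrix proteases and all 3 measured TIMPs were lower in K382Q-overexpressing cells. The members were tested with limma on log2(TPM + 0.5) together with all genes that reached a minimum TPM of 0.5 in 3 or more of the 6 libraries. Of the 85 members, 33 passed this minimum, and a gene was called at a Benjamini-Hochberg adjusted p under 0.05. Of these 33 members, 22 fell in K382Q (66.7%), 1 rose and 10 were not called, whereas 36.9% of all genes tested fell and 11.1% rose (48.1% called in either direction). At a fold change over 2 as well, 5 members fell (*Mmp3*, *Timp1*, *Mmp13*, *Adamts4* and *Mmp23*) and 0 rose, the highest log2 fold change of a member being 0.44, beside 2.61% and 1.27% of all genes tested (3.88% in either direction). *Mmp13*, counted among the 22 and the 5, passed the TPM minimum through the K382R libraries alone and so had to differ to be tested. In 25 members every K382Q library was below every K382R library, in 3 every K382Q library was above, and in 5 the groups overlapped, where 42.8% of all genes tested were lower and 14.1% higher without overlap. *Mmp13* is also among these 25, and the TPM minimum fixed its lack of overlap. The median log2 fold change (K382Q against K382R) was -0.40 over the 33 members and -0.14 over all genes tested. TPM values are shares, and this general shift was 0.0032 after median-ratio scaling, a scaling that sets the typical gene equal. With that scaling 19 members fell and 4 rose, with a median of -0.29, where 3153 of all genes fell and 3057 rose. The log2 fold changes below are on the TPM scale, and each lies 0.14 higher when read from the median of all genes tested. Median-ratio scaling moved the members by unequal amounts, *Mmp13* from -1.67 to -1.58 and *Adam15* from -0.44 to -0.29.

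**Figure D1:**
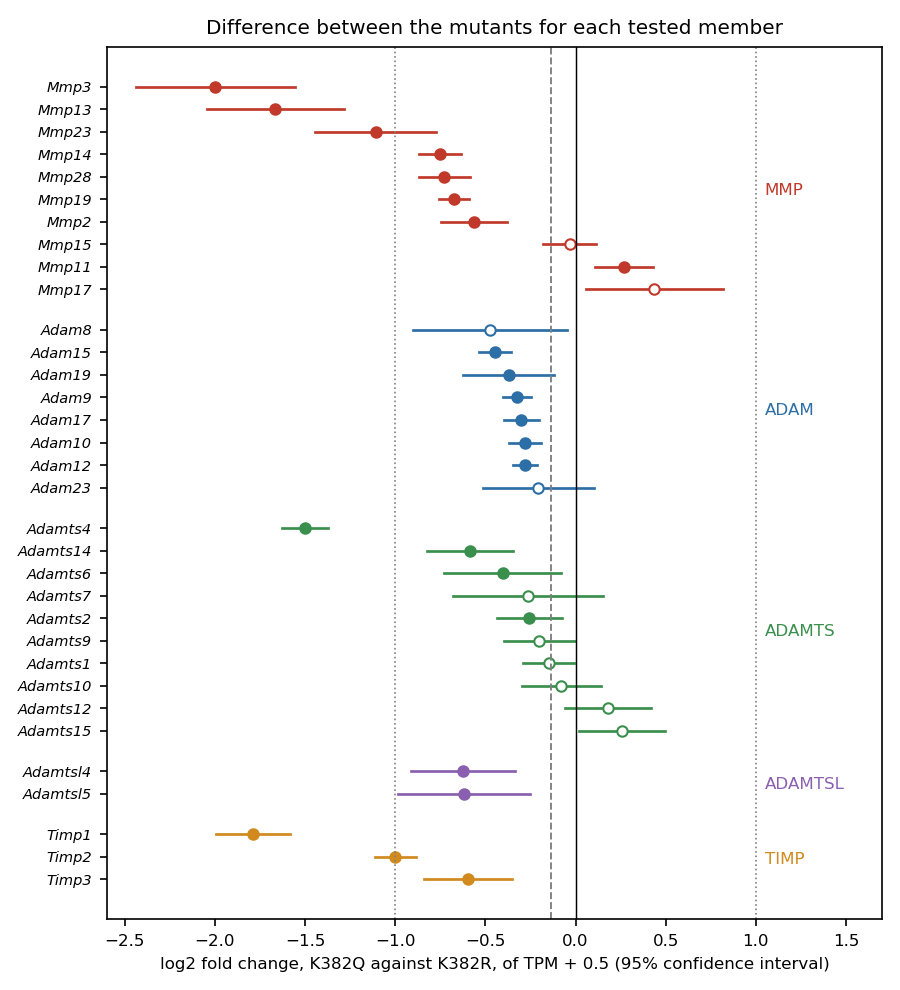
Log2 fold change of TPM + 0.5 (K382Q against K382R) of each of the 33 tested members, grouped by family, with its 95% confidence interval. Filled points passed an adjusted p of 0.05, the dashed line is the median of all genes (-0.14) and the dotted lines mark 2-fold. *Mmp3*, *Mmp13*, *Mmp23*, *Adamts4* and *Timp1* lie beyond the left dotted line, *Timp2* lies on it, and *Mmp11* is the one filled point right of 0.

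Markers of fibroblasts and adipocyte precursors moved in the same direction as the members. Of 7 such markers 5 were tested and all 5 fell (*Pdgfra*, *Pdgfrb*, *Col1a1*, *Thy1* and *Ly6a*), beside 36.9% of all genes tested. All 5 also fell with median-ratio scaling, beside 3153 of the 15426 genes tested. The sum of the 7 was 508 to 552 TPM in K382Q and 866 to 903 TPM in K382R, and *Dpp4* was listed at 0 throughout. Of 5 smooth muscle or pericyte markers 3 were tested. *Acta2* fell, at 0.675 to 0.838 TPM in K382Q and 12.6 to 14.4 TPM in K382R, while *Cspg4* and *Notch3* did not pass the test (log2 fold changes 0.45 and -0.32). *Cspg4* was above K382R in every K382Q library and was called higher with median-ratio scaling. The sum of the 5 was 5.89 to 7.42 TPM in K382Q and 17.8 to 20.3 TPM in K382R, and *Myh11* and *Rgs5* were below the TPM minimum. The part of these markers in the lower levels of the members was not tested, and in bulk RNA fewer cells of a type and less RNA per cell cannot be told apart.

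TIMPs were the family with the largest median difference, a log2 fold change of -0.999, and all 3 measured inhibitors fell, beside 36.9% of all genes tested. *Timp1* encodes a secreted inhibitor with broad activity against MMPs. The gene lies on the X chromosome (20736405 to 20740974, GRCm39). Its TPM was 14.0, 15.1 and 12.0 in the K382Q libraries and 49.3, 44.5 and 51.3 in the K382R libraries. All 3 K382R libraries were far above all K382Q libraries, and the mean was 3.53-fold lower in K382Q (log2 fold change -1.79 ± 0.09 SE, n = 3 per mutant, limma adjusted p = 4.28e-06). *Timp2*, which inhibits MMPs and also links pro-MMP2 to MMP14 for its activation, was the most abundant TIMP, at 63.3, 60.1 and 57.0 TPM in K382Q and 116.8, 119.0 and 126.1 TPM in K382R. The groups did not overlap and *Timp2* fell by 0.999 ± 0.05 on the log2 scale (limma adjusted p = 4.14e-06), which is just short of the 2-fold limit on the log2(TPM + 0.5) scale. *Timp3* encodes the inhibitor that binds to the matrix and also blocks ADAM17 and several ADAMTSs. Its TPM was 3.34, 2.88 and 2.68 in K382Q and 4.78, 4.66 and 4.74 in K382R, without overlap, and it fell by 0.60 ± 0.11 on the log2 scale (limma adjusted p = 0.00231). *Timp4* was not tested, with a TPM of 0.027 to 0.115 over the 6 libraries. The order *Timp2*, *Timp1*, *Timp3* was the same in every library.

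**Figure D2:**
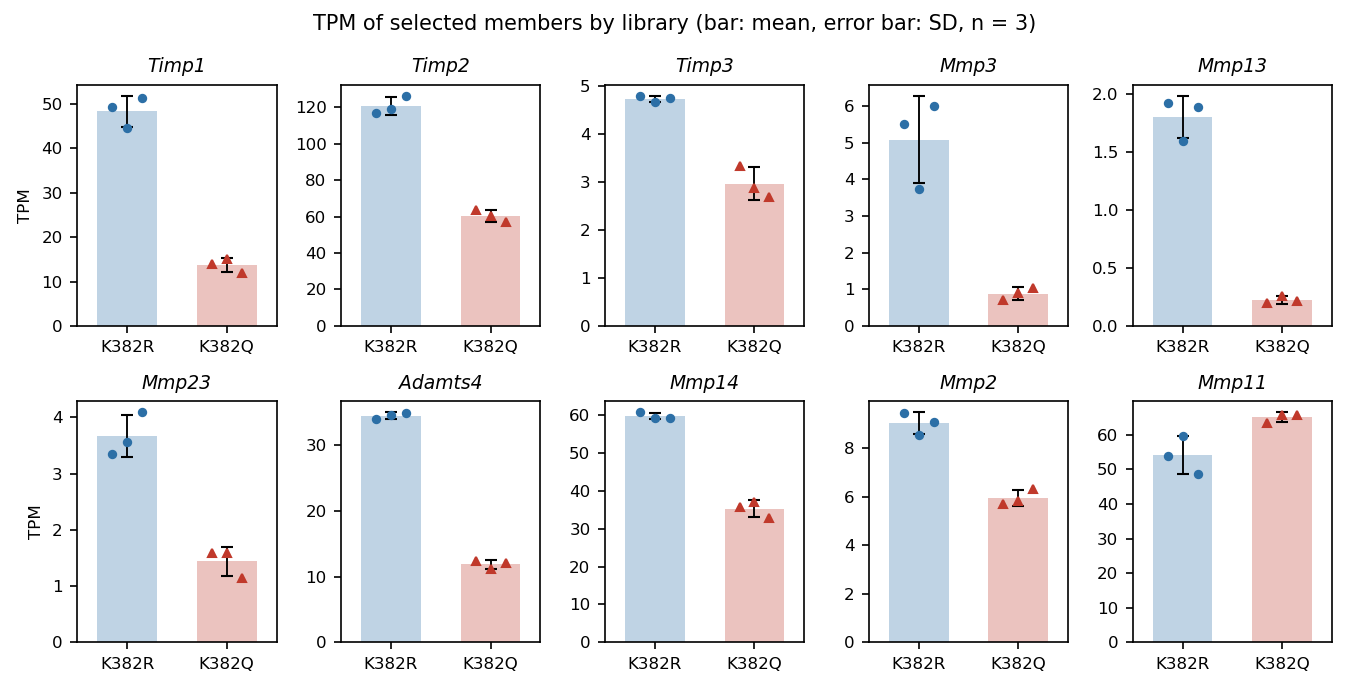
TPM of 10 members in the 3 K382R (circles) and 3 K382Q (triangles) libraries, with the mean (bar) and SD (error bar). Each panel has its own linear axis from 0. The K382Q triangles lie below the K382R circles in 9 panels and above them for *Mmp11* (63.3 to 65.8 TPM against 48.7 to 59.7 TPM).

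Among the secreted MMPs, the 2 with the largest fall lie in one gene cluster on chromosome 9, with *Mmp12* and *Mmp1b* between them. *Mmp3* encodes stromelysin-1, which cleaves proteoglycans, fibronectin and other MMP precursors, and its promoter is shown above. Its TPM was 0.700, 0.909 and 1.04 in K382Q and 5.52, 3.73 and 5.99 in K382R. Every K382R library was well above the K382Q libraries, although the K382R values spread more than those of most members (SD 1.19). The mean was 5.77-fold lower in K382Q, and the log2 fold change was -1.998 ± 0.19 (SE, n = 3 per mutant, limma adjusted p = 0.000101). *Mmp13* encodes the main interstitial collagenase of the mouse. Its TPM was 0.196, 0.258 and 0.219 in K382Q and 1.92, 1.59 and 1.89 in K382R. The K382Q libraries were all low, and the mean was 8.02-fold lower, while the log2 fold change, which the pseudocount of 0.5 draws towards 0, was -1.67 ± 0.16 (limma adjusted p = 0.000119). *Mmp13* passed the TPM minimum through the K382R libraries alone, so its groups had to differ for it to be tested. It was thinly covered, with a mean read depth per base of 0.482, 0.795 and 0.535 in K382Q and 5.80, 5.07 and 4.76 in K382R. The cluster on chromosome 9 (7272514 to 7699586 on GRCm39) holds 10 *Mmp* genes. In this 0.427-Mb stretch the 8 genes other than *Mmp3* and *Mmp13* were not tested. *Mmp1a*, *Mmp1b*, *Mmp7*, *Mmp8*, *Mmp10* and *Mmp20* were listed at 0 in all 6 libraries, *Mmp12* was above 0 in 1 library and *Mmp27* in 3.

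The other MMPs that fell included both gelatin-cleaving and membrane-bound enzymes. *Mmp23* (chromosome 4, 155735112 to 155737841), a membrane-anchored MMP, had a TPM of 1.59, 1.58 and 1.144 in K382Q and 3.36, 3.57 and 4.09 in K382R. The groups were apart and *Mmp23* fell by 1.11 ± 0.14 on the log2 scale (limma adjusted p = 0.000503), but its log2 fold change was short of 2-fold with FPKM (-0.82), a pseudocount of 1 (-0.94), median-ratio scaling (-0.99) and without K382Q replicate 3 (-0.99). *Mmp14*, the membrane-type collagenase that activates pro-MMP2, had a TPM of 35.8, 37.1 and 32.8 in K382Q and 60.6, 59.2 and 59.1 in K382R. All K382Q libraries were lower and the log2 fold change was -0.75 ± 0.05 (limma adjusted p = 1.78e-05). *Mmp2*, which encodes the gelatinase that MMP14 activates, had a TPM of 5.69, 5.81 and 6.32 in K382Q and 9.44, 8.55 and 9.07 in K382R. It fell by 0.56 ± 0.08 on the log2 scale without overlap (limma adjusted p = 0.000681). *Mmp19*, an MMP with activity against basement membrane proteins, had a TPM of 34.8, 34.9 and 35.3 in K382Q and 54.9, 56.3 and 57.2 in K382R. The K382Q values were nearly equal and the log2 fold change was -0.67 ± 0.04 (limma adjusted p = 5.63e-06). *Mmp28*, which encodes the secreted MMP epilysin, had a TPM of 11.9, 12.7 and 13.5 in K382Q and 21.7, 21.6 and 20.8 in K382R. It fell by 0.73 ± 0.06 on the log2 scale (limma adjusted p = 5.28e-05). Exons of *Mmp28* share 969 bases with those of *1700020L24Rik* on the opposite strand, at a mean of 11.3 TPM and a log2 fold change of -0.79, and exons of *Mmp19* share 1084 bases with *Tmem198b* on the opposite strand, at a mean of 4.83 TPM. The sources used here do not say whether reads were assigned by strand, so reads of overlapping genes cannot be told apart.

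*Mmp11* (chromosome 10, 75759056 to 75772330) was the 1 member that rose. It encodes stromelysin-3, an MMP that is activated by furin inside the cell and is not known as a strong collagenase. Its TPM was 63.3, 65.8 and 65.8 in K382Q and 53.9, 59.7 and 48.7 in K382R. The groups did not overlap, but the gap between the lowest K382Q and the highest K382R library was small, and the log2 fold change was 0.27 ± 0.07 (limma adjusted p = 0.0144). *Mmp11* was not called when genes below the TPM minimum were kept in the fit (limma adjusted p = 0.0543). Exons of *Mmp11* share 155 of 3523 bases with *Chchd10*, a gene of a mitochondrial protein on the opposite strand, at a mean of 342 TPM and a log2 fold change of 1.49 ± 0.06. Whether reads of *Chchd10* were counted in *Mmp11* was not tested. *Mmp15*, a membrane-type MMP, did not pass the test (13.5, 15.003 and 13.7 TPM in K382Q and 14.4, 14.98 and 13.8 TPM in K382R, overlapping). Its log2 fold change was -0.03 (95% confidence interval -0.18 to 0.12) and 0.12 with median-ratio scaling. *Mmp17*, a GPI-anchored MMP, had a log2 fold change of 0.44 and did not pass the test (limma adjusted p = 0.0597), but it did with median-ratio scaling (limma adjusted p = 0.0322). As the level of *Mmp14* fell and that of *Mmp11* did not, the order of the MMPs differed between the mutants. In K382R the ranges of *Mmp14* (59.1 to 60.6 TPM) and *Mmp11* overlapped, and in K382Q all *Mmp11* values lay above those of *Mmp14* (32.8 to 37.1 TPM) and *Mmp19*, which overlapped each other. The ratio of *Mmp11* to *Mmp14* within a library, which does not depend on scaling, was 1.77 to 2.00 in K382Q and 0.824 to 1.01 in K382R.

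**Figure D3:**
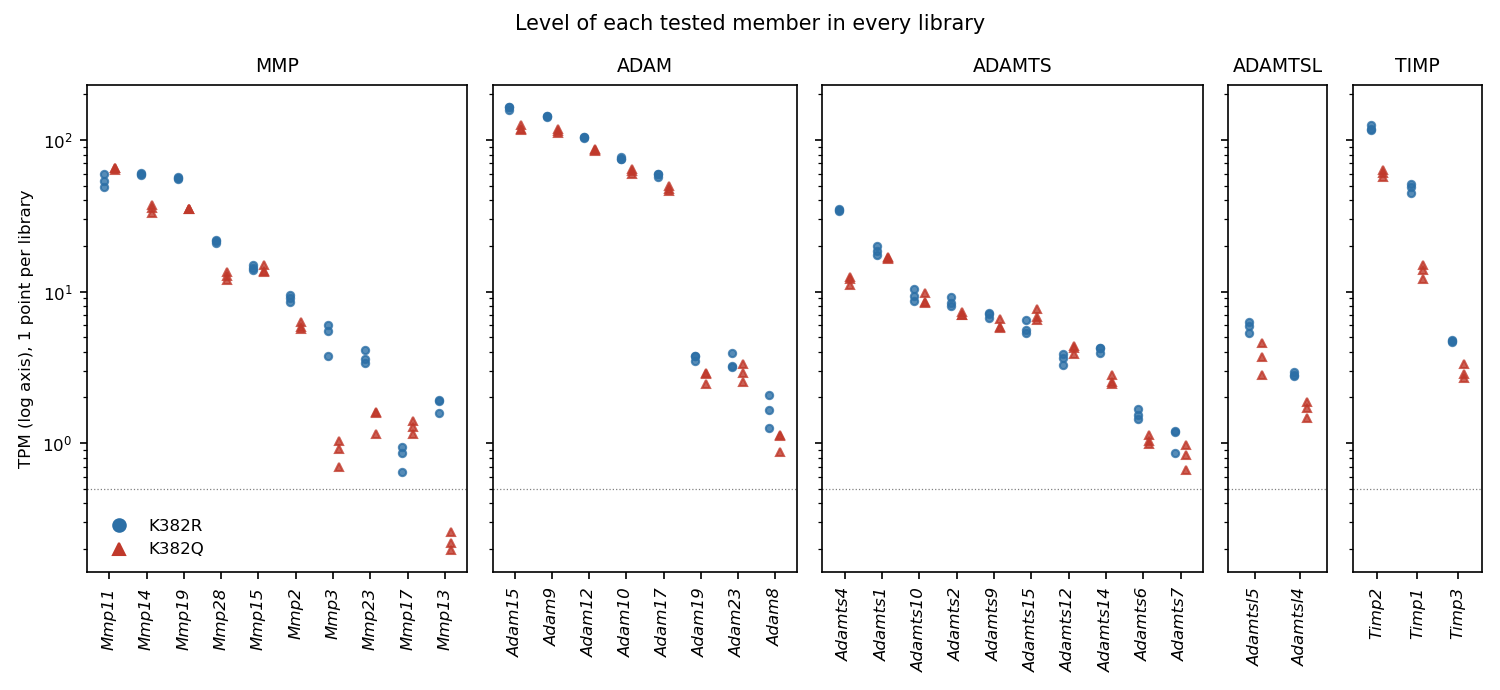
TPM on a log axis of each of the 33 tested members in every library, by family, in order of mean level, with K382R as circles and K382Q as triangles. The dotted line is the minimum TPM of 0.5. All points lie above it but the 3 K382Q values of *Mmp13* (0.196 to 0.258 TPM), and the ADAMs split into 5 genes at 46.0 TPM or more and 3 at 3.91 TPM or less.

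ADAMs were the most abundant proteases, and their differences were small. Of the 8 measured, 6 fell, all by less than 0.45 on the log2 scale, and 0 rose, beside 36.9% and 11.1% of all genes tested. With median-ratio scaling 5 fell and 0 rose, beside 3153 and 3057 of the 15426 genes tested. *Adam15*, a metalloproteinase with an integrin-binding disintegrin domain, had a TPM of 116.2, 124.9 and 117.3 in K382Q and 165.9, 164.7 and 157.7 in K382R. It was lower in all K382Q libraries and had the largest fall among called ADAMs, with a log2 fold change of -0.44 ± 0.04 (limma adjusted p = 6.32e-05). *Adam9*, a widely expressed sheddase, had a TPM of 118.8, 110.8 and 114.3 in K382Q and 142.3, 144.7 and 144.2 in K382R, and fell by 0.33 ± 0.03 on the log2 scale (limma adjusted p = 0.00016). *Adam12*, known from muscle and adipocyte precursors, had a TPM of 86.8, 85.4 and 84.5 in K382Q and 103.5, 104.6 and 103.9 in K382R. It fell by 0.28 ± 0.03 on the log2 scale (limma adjusted p = 0.000155).

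The main sheddases of the Notch and TNF pathways had log2 fold changes of similar size. *Adam10*, which cleaves Notch receptors, had a TPM of 64.4, 59.6 and 62.0 in K382Q and 75.0, 74.5 and 76.8 in K382R. *Adam17*, which releases TNF and ligands of the EGF receptor, had a TPM of 49.7, 47.4 and 46.0 in K382Q and 57.2, 59.9 and 59.3 in K382R. In both genes all K382Q libraries were lower, with log2 fold changes of -0.28 ± 0.04 (limma adjusted p = 0.000638) and -0.30 ± 0.04 (limma adjusted p = 0.000676). Relative to the typical gene these differences were about the size of the general shift, and both still passed the test with median-ratio scaling, at log2 fold changes of -0.13 and -0.15. The ratio of *Adam10* to *Adam17* was 1.26 to 1.35 in K382Q and 1.24 to 1.31 in K382R, with overlapping ranges. *Adam19* fell by 0.37 on the log2 scale, but was not called with median-ratio scaling (limma adjusted p = 0.111) or FPKM (limma adjusted p = 0.055), and was called in 3 of the 6 fits that left out one library. *Adam8* and *Adam23*, which has no protease activity, did not pass the test at log2 fold changes of -0.48 and -0.21. In K382R the levels of *Adam15*, *Adam9*, *Adam12*, *Adam10* and *Adam17* followed each other in that order without overlap, and in K382Q only the ranges of *Adam15* and *Adam9* overlapped.

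Of the 10 measured ADAMTSs, 4 fell and 6 were not called, close to the share over all genes, and 1 of them, *Adamts4*, stood apart in size. *Adamts4* (chromosome 1, 171077990 to 171088206) encodes an aggrecanase that also cleaves versican. Its TPM was 12.5, 11.1 and 12.1 in K382Q and 34.0, 34.6 and 34.9 in K382R. Values were tight within each mutant and far apart between them, 2.90-fold lower in K382Q, with a log2 fold change of -1.50 ± 0.06 (limma adjusted p = 1.29e-06). *Adamts1*, a proteoglycan-cleaving ADAMTS, had a TPM of 16.9, 16.8 and 16.5 in K382Q and 18.6, 19.9 and 17.3 in K382R. The groups were close but did not overlap, and the difference did not pass the test (log2 fold change -0.15, 95% confidence interval -0.29 to -0.01, limma adjusted p = 0.0816). It was -0.0011 with median-ratio scaling and 0.0090 with quantile normalization. *Adamts4* was therefore above *Adamts1* in every K382R library and below it in every K382Q library, with a ratio of 1.74 to 2.01 in K382R and 0.663 to 0.736 in K382Q.

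The procollagen-processing ADAMTSs differed by less. *Adamts2* encodes the main N-proteinase of type I procollagen. It had a TPM of 7.34, 6.95 and 7.001 in K382Q and 8.46, 8.05 and 9.27 in K382R and fell by 0.26 ± 0.08 on the log2 scale (limma adjusted p = 0.027). It was not called with median-ratio scaling (limma adjusted p = 0.263). *Adamts14*, a second procollagen N-proteinase, fell by 0.59 on the log2 scale, and *Adamts6* fell by 0.40 but was not called with median-ratio scaling, with FPKM or when any one library was left out. *Adamts9*, a versican-cleaving enzyme, had a TPM of 6.61, 5.76 and 5.83 in K382Q and 6.71, 7.24 and 7.15 in K382R and did not pass the test (log2 fold change -0.20). *Adamts10*, which binds fibrillin, overlapped between the groups (9.80, 8.54 and 8.38 TPM in K382Q and 9.32, 8.62 and 10.4 TPM in K382R). Its log2 fold change was -0.08 (95% confidence interval -0.30 to 0.14) and 0.07 with median-ratio scaling. *Adamts15* and *Adamts12* had log2 fold changes of 0.26 and 0.18 and were not called, but both passed the test as higher with median-ratio scaling (limma adjusted p = 0.0141 and 0.0391). *Adamts7*, which by its third-highest library was the member just inside the TPM minimum, had a TPM of 0.661, 0.839 and 0.968 in K382Q and 1.18, 1.21 and 0.866 in K382R, which overlap.

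ADAMTS-like proteins share the ancillary domains of ADAMTSs, have no protease domain and bind fibrillin microfibrils. Both measured members fell and neither overlapped between the groups, beside 36.9% of all genes tested that fell and 42.8% that were lower without overlap. *Adamtsl5* had a TPM of 3.69, 4.56 and 2.82 in K382Q and 5.90, 6.28 and 5.36 in K382R, with a log2 fold change of -0.62 ± 0.16 (limma adjusted p = 0.0131). It was not called when genes below the TPM minimum were kept in the fit (limma adjusted p = 0.0539). *Adamtsl4* had a TPM of 1.698, 1.46 and 1.87 in K382Q and 2.81, 2.77 and 2.96 in K382R, with a log2 fold change of -0.62 ± 0.12 (limma adjusted p = 0.00427).

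Transcripts of the inhibitors were lower in K382Q by a larger factor than those of each protease family. Summed over all members of a family, the level in K382Q and K382R was 172 ± 3.3 and 226 ± 4.4 TPM for MMPs (mean ± SD, n = 3), 437 ± 6.0 and 555 ± 3.0 TPM for ADAMs, 66.6 ± 3.2 and 94.8 ± 1.6 TPM for ADAMTSs and 76.9 ± 4.6 and 174 ± 7.4 TPM for TIMPs. The ratio of MMP, ADAM and ADAMTS transcripts to TIMP transcripts within a library was 8.47 to 9.33 in K382Q and 4.78 to 5.25 in K382R. For MMPs alone the ratio was 2.10 to 2.39 in K382Q and 1.22 to 1.37 in K382R. These ratios do not depend on scaling and did not overlap, and with 3 libraries per group the smallest p of an exact permutation test is 0.1. They compare transcripts and do not measure inhibition, as TIMPs do not block every protease in the sums. Within the TIMPs, *Timp1* made up 16.8% to 19.3% of the transcripts in K382Q and 26.5% to 28.8% in K382R, and *Timp2* 76.9% to 79.4% and 68.3% to 70.7%. The ratio of *Mmp14* to *Timp2* was 0.565 to 0.617 in K382Q and 0.469 to 0.519 in K382R. Other pairs went the other way. The ratio of *Adamts4* to *Timp3* was 3.73 to 4.53 in K382Q and 7.12 to 7.44 in K382R, and that of *Mmp3* to *Timp1* was 0.050 to 0.086 and 0.084 to 0.117, which overlap. The order of the families by summed level was ADAM, MMP, TIMP and ADAMTS in K382R, while in K382Q TIMPs (71.8 to 80.7 TPM) and ADAMTSs (64.0 to 70.1 TPM) were close but did not overlap.

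**Figure D4:**
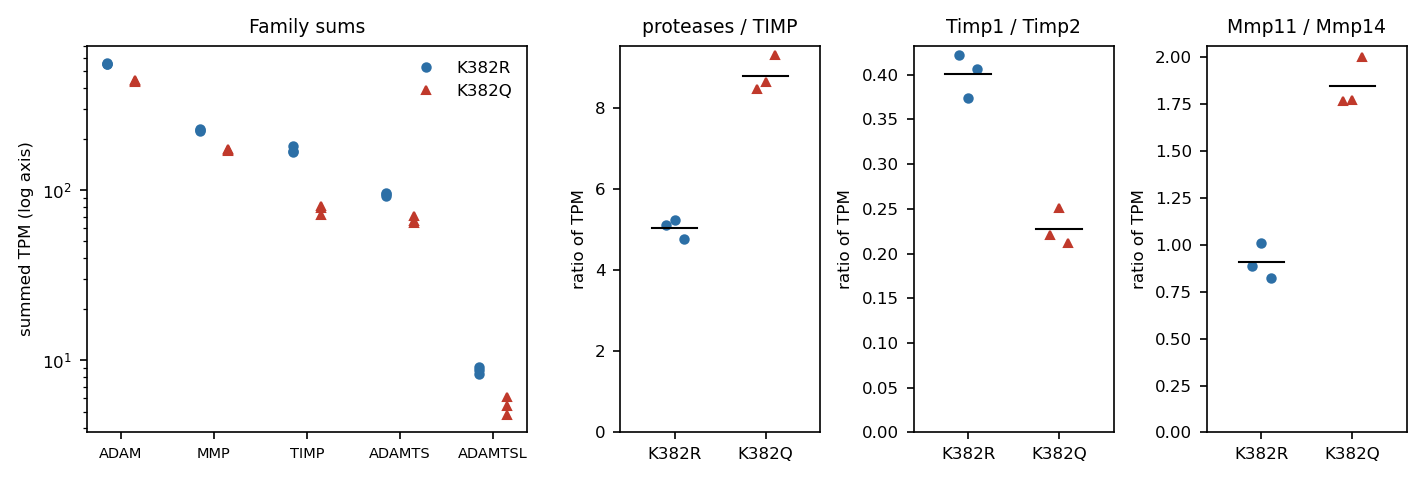
Left, summed TPM of each family in every library on a log axis. Right, the ratios of MMP, ADAM and ADAMTS to TIMP transcripts, of *Timp1* to *Timp2* and of *Mmp11* to *Mmp14* on linear axes from 0, with K382R as circles, K382Q as triangles and a line at the mean. The protease to TIMP ratio is 8.47 to 9.33 in K382Q and 4.78 to 5.25 in K382R, and no panel shows overlap between the mutants.

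Genes that control the proteases were read from the same fit. Of 26 regulators, 20 were tested, of which 11 fell and 2 rose, beside 36.9% and 11.1% of all genes tested. With median-ratio scaling 7 of the 20 fell and 3 rose, beside 3153 and 3057 of the 15426 genes tested. *Reck*, which encodes a membrane-anchored inhibitor of MMPs, had a TPM of 0.364, 0.374 and 0.591 in K382Q and 1.22, 1.38 and 1.13 in K382R and fell by 0.89 ± 0.18 on the log2 scale (limma adjusted p = 0.0045), without overlap. *Furin*, the protease that activates the precursors of many members, fell by 0.56, and *Lrp1*, the receptor that clears protease and inhibitor complexes, fell by 0.67. *Rhbdf1* and *Rhbdf2*, which encode the iRhoms that carry ADAM17 to the cell surface, fell by 0.34 and 0.78. In the other direction, *Bsg*, which encodes the MMP inducer basigin, had a TPM of 3673, 4057 and 3879 in K382Q and 1860, 1840 and 1848 in K382R. It had the largest rise of the list, a log2 fold change of 1.06 ± 0.04 (limma adjusted p = 1.36e-06), and was at the highest level of the regulators. *Tspan15*, a partner of ADAM10, rose by 0.56. Of the 7 astacin proteases and enhancers of procollagen processing, 3 were tested. All 3 fell, beside 36.9% of all genes tested, and all 3 fell with median-ratio scaling, beside 3153 of the 15426 genes tested. *Bmp1*, the procollagen C-proteinase, fell by 1.46, and the enhancer genes *Pcolce2* and *Pcolce* fell by 1.02 and 0.90.

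Proteins on which the members act also had lower transcript levels for the most part. Of 28 proteins shed by ADAM10 or ADAM17, 21 were tested, 13 fell and 2 rose, beside 36.9% and 11.1% of all genes tested. In the fit with median-ratio scaling 11 fell and 2 rose, beside 3153 and 3057 of the 15426 genes tested. The largest fall was that of the adhesion molecule *Icam1*, with a log2 fold change of -1.40, and *Sdc4*, a syndecan, had the largest rise at 0.41. Of 16 substrates of ADAMTSs, 12 were tested, 11 fell and 0 rose, 7 of them over 2-fold, beside 36.9%, 11.1% and 2.61% (lower over 2-fold) of all genes tested. With median-ratio scaling 11 fell and 1 rose, beside the same 3153 and 3057 genes. *Bcan*, counted among the 7, passed the TPM minimum through the K382R libraries alone and so had to differ to be tested. The largest fall was that of *Ltbp1*, a TGF-β-binding matrix protein, with a log2 fold change of -2.17. All 7 genes of AP-1 subunits, the factor whose motif stands in the *Mmp3* and *Mmp13* promoters, were tested. *Junb* and *Fos* fell by 0.84 and 0.55 on the log2 scale, *Fosl2* and *Jun* rose by 0.33 and 0.23, and *Fosl1*, *Fosb* and *Jund* did not pass the test, so the subunits did not move in one direction.

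The 52 members below the TPM minimum were 13 MMPs, 26 ADAMs, 9 ADAMTSs, 3 ADAMTS-like genes and *Timp4*. Of these, 26 were listed at 0 in all 6 libraries, among them 16 ADAMs, several of which are known from testis. *Adam1a* was just outside the minimum, with 0.391, 0.576 and 0.407 TPM in K382Q and 0.490, 0.409 and 0.497 TPM in K382R. *Adamts5*, the second aggrecanase, had a TPM of 0.178 to 0.192 in K382Q and 0.220 to 0.321 in K382R and was not tested. *Mmp9*, the gelatinase of leukocytes, was above 0 in 3 libraries and at most at 0.055 TPM.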

How the data were processed

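RNA-seq libraries of 3 K382Q and 3 K382R cultures (NEBNext Ultra kit) were sequenced as read pairs. The authors aligned the trimmed reads to GRCm39 with HISAT2 and quantified genes with StringTie, and the release of the annotation and the strand setting are not given in the sources used here. They deposited 1 table per library. The deposited coverage is the mean number of reads over each base of a gene, the deposited FPKM is normalised for transcript length and sequencing depth, and the deposited TPM is FPKM brought to one common sum for all libraries. TPM therefore gives shares of transcripts and not absolute amounts. Values of gene IDs listed more than once (at most 5 extra entries per library) were summed. The depth of a library was taken as its highest value of coverage divided by FPKM, which a minority of genes shared. Other genes had lower values, so coverage was read only for *Mmp13*.

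Genes were compared with limma 3.58.1 (R 4.3.3, intensity trend) on log2(TPM + 0.5), using 15426 genes that reached 0.5 TPM in 3 or more libraries, and p-values were adjusted over all of them. A fold change on this scale understates the change of low genes. The code was tested on simulated data. Sequences and gene starts came from GRCm39 and GENCODE mouse release 39, which held all 85 members on the same chromosome and strand. Python 3.11.15, pandas 2.3.3 and matplotlib 3.10.9 were used for the remaining steps.

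The members and the gene lists were chosen with earlier results of these data known. Members named with their values in every library are those past 2-fold, the 5 most abundant and the largest rise and fall of each family, all TIMPs, *Mmp2*, *Mmp14*, *Adam10*, *Adam17*, and the members just inside and outside the TPM minimum. The rule gives other members by their log2 fold change or level only. Of the lists, the largest rise and fall and *Reck*, *Bsg*, *Furin*, *Lrp1*, *Rhbdf1* and *Rhbdf2* are named. *Chchd10* and other overlapping genes, *Adamts5*, *Mmp9*, and list members beyond this rule were named after their values were seen. A result for 1 gene is not reported here.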

Additional observations from a re-analysis of the deposited data

How the results depend on the processing

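The 22 members called lower were 19 to 22 under all alternatives and also when single libraries were left out. Over all genes, 5698 of 15426 were called lower, and 3153 with median-ratio scaling and 3241 with quantile normalization. The same count was 4058 of 13419 genes with FPKM and 5105 of 29522 without a filter on low values. The number called higher, 1, was 2 with FPKM, 4 with median-ratio scaling, 4 with quantile normalization, 0 without a filter on low values (limma adjusted p of *Mmp11* 0.0543), 2 without the intensity trend and 1 to 2 without single libraries. At over 2-fold 5 members fell (4 to 6 under other settings and without single libraries) and 0 rose under any setting. Over all genes 599 differed by over 2-fold in either direction, from 377 with FPKM to 889 with a pseudocount of 0.1. At a limit of 1.5-fold 13 members fell, and the share over all genes at that limit is not given here. The median log2 fold change of the members, -0.40, was -0.33 and -0.45 with a pseudocount of 1 and 0.1, -0.30 with FPKM, -0.29 with median-ratio scaling, -0.32 with quantile normalization and -0.43 to -0.36 without single libraries. Uncalled members changed sign as follows. *Adamts1* was at 0.0090 with quantile normalization. *Adamts10* was at 0.0014 with FPKM, 0.066 with median-ratio scaling and 0.068 with quantile normalization. *Mmp15* was at 0.047, 0.12 and 0.14 in that order. Of all genes called, 23.2% were higher in K382Q, and 36.3% with FPKM, 49.2% with median-ratio scaling and 47.7% with quantile normalization. *Adamts2* was not called with FPKM, either scaling, the block (limma adjusted p 0.0525) or without any of 4 of the libraries (limma adjusted p at most 0.266), *Adamtsl5* was not called without the filter (limma adjusted p 0.0539), *Adamts1* was called without K382R replicate 3 and *Adamts9* without K382Q replicate 1. With the replicate number as a block, 20 members fell and 1 rose, and *Adamts6* (limma adjusted p 0.0931) and *Adamts2* were no longer called. Same-numbered libraries did not deviate together (correlations -0.018, 0.051 and 0.022). With 3 libraries per mutant this cannot show whether same-numbered cultures were handled together, and the sources used here do not say. *Mmp13* had a mean read depth per base of 0.482 to 0.795 in K382Q, and 26 of the 52 members below the TPM minimum were listed at 0 in all libraries. The effect of depth on the calls was not tested.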
